A study of Homo sapiens with 6 samples.

Results

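The sterol regulatory element binding proteins (SREBPs) are membrane-bound transcription factors that switch on the genes for making fatty acids and cholesterol. A total of 32 such genes were followed in RNA sequencing counts of A498 cells after knockdown of PTPRZ1. They were taken from the table of 61860 genes by their symbols, each of which matched 1 row. They form a fatty acid arm of 12 genes, from the factor SREBF1 through the synthesis, desaturation, elongation and activation of fatty acids. The sterol arm holds 20 genes, from the factor SREBF2 and its sensors through the steps from acetyl-CoA to cholesterol and a sterol carrier.

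A498 is an established human line of clear cell kidney cancer, grown here in MEM medium with fetal bovine serum. The 3 control libraries (PTPRZ_nc) are labelled as controls for a knockdown by plasmid. The 3 knockdown libraries (PTPRZ_Si) are labelled as a knockdown by siRNA. By these labels the kind of agent differs with the group, and its effect cannot be told apart from that of the knockdown. Both groups carry the treatment label "transfection infection", and no time after it, clone or sequence of either agent is given in the sources used here. PTPRZ1 encodes a receptor protein tyrosine phosphatase, and the series title sets it beside the ubiquitin ligase RNF26 and the response of such cancers to kinase inhibitors and PD-1 blockade.

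Each SREBP is made as a precursor in the membrane of the endoplasmic reticulum. When sterols are low, the escort protein SCAP carries it to the Golgi, where proteases cut the factor free, and when sterols are high, INSIG proteins hold SCAP back. SREBP1, from SREBF1, is best known for fatty acid genes and SREBP2, from SREBF2, for cholesterol genes, with overlap between them. SREBPs bind promoters together with the CCAAT-binding factor NF-Y and with SP1, which binds GC boxes. Clear cell kidney cancer is known for cells filled with lipid droplets of cholesterol esters and triglycerides.

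Total counts ran from 13726908 to 21469746 per library, and 15476 genes were tested. Levels are given as CPM, the count of a gene relative to the scaled size of its library. PTPRZ1 had 0 counts in each of the 6 libraries, which allows at most 3 counts, or 0.0607 CPM over the controls and 0.0527 CPM over the knockdown, so its reduction could not be checked. RNF26 had 49.7, 49.2 and 47.9 CPM in control replicates 1, 2 and 3 and 39.3, 38.8 and 45.2 CPM in knockdown replicates 1, 2 and 3. The groups did not overlap, and RNF26 was lower after the knockdown (log2 fold change -0.25, SE 0.0695, edgeR adjusted p = 0.0128), a call lost without knockdown replicate 1 (adjusted p = 0.0610) or 2 (0.0697). Of 10 genes listed as kidney epithelial markers, EPCAM and LRP2 stayed under 1 CPM in every library. The 10 together summed to 3110 to 3160 CPM in controls and 3170 to 3300 CPM after the knockdown. VIM made up a large part of these sums, with means of 1181 CPM in controls and 788 CPM after the knockdown. Of 8 tested markers 6 were higher (75.0%, beside 14.0% of all tested genes) and 1, VIM, lower (12.5%, beside 13.4%). The sum hides moves in both directions, with CDH6 at 2.08-fold, PAX8 at 1.77-fold and VIM at 0.667-fold of the control. All 5 immune markers (PTPRC and CD3E at 0), 4 of 5 fibroblast markers and 3 of 4 endothelial markers were under 1 CPM in every library. The fibroblast list summed to 31.3 to 41.3 CPM in controls and 21.2 to 23.7 CPM after the knockdown, nearly all of it COL1A1. The immune list summed to 0.427 to 0.643 and 0.288 to 0.374 CPM, and the endothelial list to 0.935 to 1.1 and 1.4 to 1.63 CPM. The part of these markers in the results was not tested. Nothing in the labels tells whether replicates are separate cultures, so the p-values measure the spread between these libraries only, which may be technical, and in bulk RNA a change in the mix of cells and a change per cell cannot be told apart.

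All 12 genes of the fatty acid arm passed the test between the groups: 11 rose after the knockdown and 1, ELOVL1, fell. In the sterol arm 7 of 20 genes rose, 2 fell (FDPS and MVK), and 11 did not pass. SCD, ACLY, ELOVL6, FASN, ACSS2 and FADS2 led the fatty acid arm together with ACACA, which rests on few counts, with folds from 1.33 to 2.11. HMGCS1, STARD4 and DHCR7 led the sterol arm, with folds from 1.34 to 1.59. Genes were tested with edgeR's quasi-likelihood test over all 15476 genes, and a gene was called at a Benjamini-Hochberg adjusted p of at most 0.05. By that rule 27.4% of all tested genes were called, 14.0% higher and 13.4% lower. The share called higher was 91.7% in the fatty acid arm, 35.0% in the sterol arm and 56.2% over the 32 genes, and the share called lower was 8.33%, 10.0% and 9.38%. The median log2 fold change was 0.42 in the fatty acid arm, 0.07 in the sterol arm and 0.00 over all tested genes. With 1 library left out, the sterol median ran from 0.011 (without knockdown replicate 2) to 0.115 (without knockdown replicate 3). Library values of the groups did not overlap for 11 of 12 and 8 of 20 genes, against 40.8% of all tested genes. The median size of a called change was 1.33-fold in the fatty acid arm and 1.18-fold in the sterol arm, beside 1.26-fold over all 4243 called genes. With any single library left out, 9 to 11 genes of the fatty acid arm were called higher, and the sterol arm count fell from 7 to 4 or 5, down to 4 without knockdown replicate 1, 2 or 3. The sterol count was also 4 when libraries were scaled by their totals alone. The count of sterol genes called lower went from 2 to 1 without control replicate 1, without knockdown replicate 1 or 2, and with DESeq2.

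**Figure D1:**
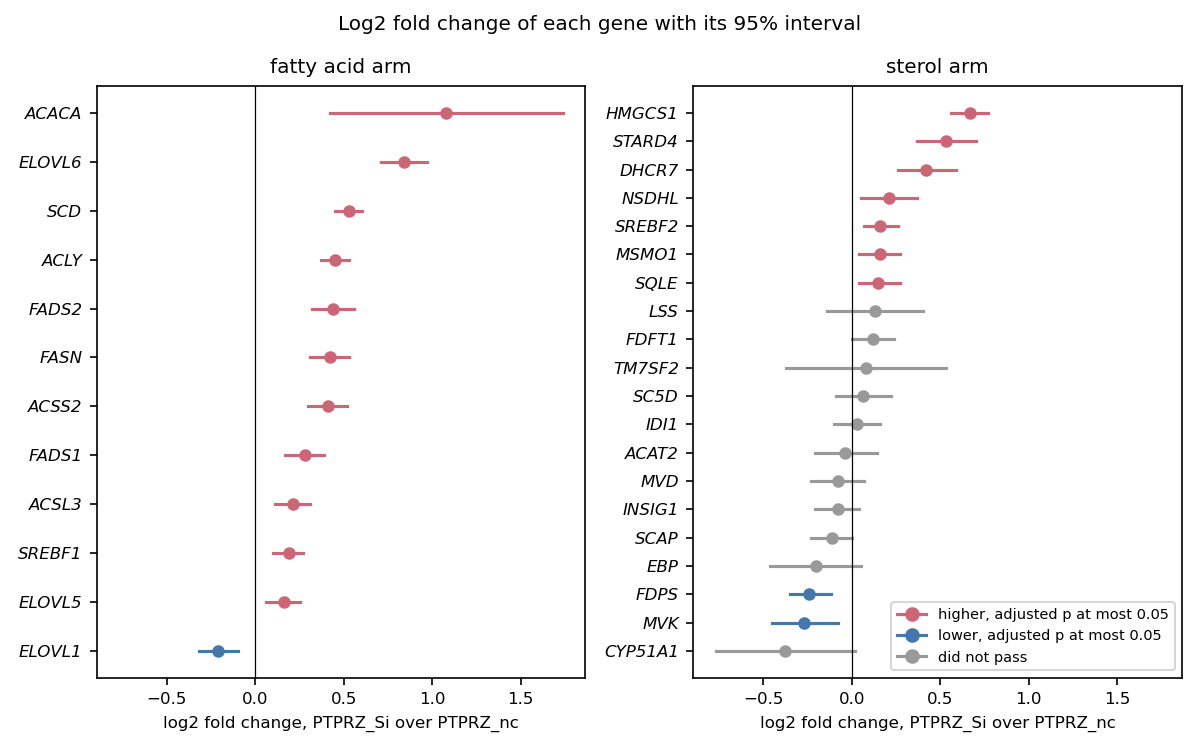
Log2 fold change of each gene, knockdown over control, with its 95% interval from the edgeR fit over all tested genes; red marks genes called higher, blue genes called lower and grey genes that did not pass. In the fatty acid arm 11 intervals lie above 0 and that of ELOVL1 below it, while the sterol arm spreads on both sides of 0.

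Promoters are shown for the most firmly called gene of each arm and for the gene with the largest fall among those called in it, so that the letters of genes that moved in opposite directions can be read side by side. The SREBF2 promoter was added after the matches were seen. The sequences are the 250 bases before the RefSeq start in GRCh38.p14, written 5′ to 3′ along the gene's strand. Capitals mark matches on either strand to the CCAAT box (CCAAT), the GC box (GGGCGG) and the sterol regulatory element (TCACNCCAC).
SCD promoter, chr10:100346983-100347232, plus strand: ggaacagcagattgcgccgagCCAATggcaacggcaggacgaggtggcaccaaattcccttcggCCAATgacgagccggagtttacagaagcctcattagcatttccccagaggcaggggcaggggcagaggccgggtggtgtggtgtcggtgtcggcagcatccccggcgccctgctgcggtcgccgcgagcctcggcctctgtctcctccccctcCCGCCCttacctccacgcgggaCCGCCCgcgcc
ELOVL1 promoter, chr1:43368012-43368261, minus strand: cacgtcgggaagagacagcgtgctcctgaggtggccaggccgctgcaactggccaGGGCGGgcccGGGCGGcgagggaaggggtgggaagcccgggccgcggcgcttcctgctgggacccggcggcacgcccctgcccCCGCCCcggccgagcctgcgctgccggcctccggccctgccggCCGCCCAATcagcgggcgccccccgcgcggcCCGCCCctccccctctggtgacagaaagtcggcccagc
HMGCS1 promoter, chr5:43313413-43313662, minus strand: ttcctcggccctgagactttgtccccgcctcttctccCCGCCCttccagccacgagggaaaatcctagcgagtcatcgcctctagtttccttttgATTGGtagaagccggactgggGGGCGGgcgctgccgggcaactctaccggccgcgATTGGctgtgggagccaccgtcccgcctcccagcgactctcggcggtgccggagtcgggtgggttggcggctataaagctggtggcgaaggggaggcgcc
MVK promoter, chr12:109573544-109573793, plus strand: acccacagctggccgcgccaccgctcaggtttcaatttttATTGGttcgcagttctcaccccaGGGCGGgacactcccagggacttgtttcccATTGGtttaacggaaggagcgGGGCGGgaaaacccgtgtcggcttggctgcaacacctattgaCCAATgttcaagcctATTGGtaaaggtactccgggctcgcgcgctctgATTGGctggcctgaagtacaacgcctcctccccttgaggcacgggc
SREBF2 promoter, chr22:41832855-41833104, plus strand: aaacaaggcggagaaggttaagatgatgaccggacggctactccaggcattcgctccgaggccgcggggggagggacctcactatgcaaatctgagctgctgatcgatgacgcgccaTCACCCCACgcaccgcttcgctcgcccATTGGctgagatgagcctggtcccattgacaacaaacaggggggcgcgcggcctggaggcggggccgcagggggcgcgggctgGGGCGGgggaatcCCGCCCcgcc

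The promoters of SCD and HMGCS1, which rose, and of ELOVL1 and MVK, which fell, all held CCAAT and GC boxes; for HMGCS1 the first of its 2 starts is shown. SCD held 2 CCAAT boxes and 2 GC boxes, and HMGCS1 held 2 and 2. MVK held 5 CCAAT boxes and 2 GC boxes, while ELOVL1 held 1 CCAAT box and 5 GC boxes, with the CCAAT box overlapping one of the GC boxes. None of these 4 held the E-box CACGTG or the sterol regulatory element. RefSeq windows of 250 bases before to 50 bases after a start matched 28 of the 32 genes, with 38 windows, since some genes have several starts, in part overlapping. No window was used for FASN, SQLE, FDFT1 and ACAT2. A CCAAT box was present in 27 of the 38 windows (71.1%) and in 34.6% of all 35116 windows of the table. A GC box was present in 33 of 38 (86.8%), beside 45.0% of all windows. CCAAT boxes were in 62.5% of fatty acid arm windows and 77.3% of sterol arm windows, both above the table's share, which was not matched for base composition. The E-box was in 6 of 38 windows (15.8%, beside 7.26%), 5 of them in the sterol arm, from 4 genes. It was in 1 of 23 windows of genes that had risen and 0 of 3 of genes that had fallen. For genes that had not passed it was in 5 of 12 windows, where the overlapping windows of SC5D hold the same site. Counted by gene, the E-box was in 5 of 28 (17.9%, beside 8.77% of all 27305 gene symbols). The sterol regulatory element in exactly these letters was in 1 of 38 windows (2.63%, beside 1.13%), that of SREBF2, where it began 133 bases before the start. Genes that had risen, had fallen and had not passed held a CCAAT box in 15 of 23, 3 of 3 and 9 of 12 windows. Overlapping windows, such as those of ACLY, can hold the same box, so windows are not independent. Counted by gene, a CCAAT box was in 23 of 28 (82.1%, beside 39.7% of all gene symbols). A match is a description of letters, not a binding site, and a missing match says only that these letters are not in this window.

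SREBF1 (ENSG00000072310, GRCh38 chromosome 17 from 17810399 to 17837002, minus strand), which encodes the factor of the fatty acid arm, rose slightly. It had 254, 258 and 250.2 CPM in control replicates 1, 2 and 3 and 290.0, 289 and 288 CPM in knockdown replicates 1, 2 and 3, the order kept below. The lowest knockdown library stood above the highest control, and the mean went from 254 ± 3.83 to 289 ± 1.27 CPM (SD, n = 3 each; log2 fold change 0.19, SE 0.0387, adjusted p = 0.00164). The count does not separate the isoforms SREBP1a and SREBP1c, nor the precursor from the cleaved factor.

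Both suppliers of acetyl-CoA rose. ACLY, which splits citrate exported from mitochondria, had 488, 472 and 457 CPM in controls and 655, 639.6 and 646 CPM after the knockdown, with every knockdown library above every control (log2 fold change 0.45, SE 0.0372, adjusted p = 1.16e-07). ACSS2, which makes acetyl-CoA from acetate, had 76.2, 72.6 and 68.8 CPM and 95.2, 98.7 and 94.96 CPM, again without overlap (log2 fold change 0.41, SE 0.0531, adjusted p = 1.84e-05). The changes, 36.9% and 32.9%, were of like size although ACLY stood at 90.6 and ACSS2 at 13.5 CPM per kb of exon in controls.

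The chain-building enzymes were called higher on very different depth. FASN, the fatty acid synthase that builds palmitate, had 286, 312 and 271 CPM in controls and 391, 368 and 405 CPM after the knockdown, with no overlap (log2 fold change 0.42, SE 0.0513, adjusted p = 9.29e-06). Control replicate 2 was the highest control for FASN and knockdown replicate 2 the lowest knockdown library. ACACA, the cytosolic acetyl-CoA carboxylase that makes malonyl-CoA for FASN, had only 653 counts over the 6 libraries. Its level was 2.51, 3.58 and 5.33 CPM in controls and 8.02, 4.08 and 12.2 CPM after the knockdown, so knockdown replicate 2 lay below control replicate 3. The fitted log2 fold change of 1.08 (95% interval 0.42 to 1.74, adjusted p = 0.0163) was the largest of the 32 and the least certain. The call was lost with DESeq2 (adjusted p = 0.132) and limma-voom (0.0555). It was also lost without control replicate 1 (log2 fold change 0.84, adjusted p = 0.0879) and without knockdown replicate 3 (0.63, adjusted p = 0.175). At 0.293 CPM per kb of exon in controls, ACACA had the lowest level of the 32 genes. Of its 11 protein-coding neighbours within 500 kb on chromosome 17, 5 had under 100 counts over all libraries (45.5%, beside 38.8% of all protein-coding genes), among them AATF with 4 and DUSP14 with 2. The part that counting played in the low value was not tested, so it is not shown to be a low level in the cells.

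All 3 desaturases, which put double bonds into fatty acids, rose. SCD (ENSG00000099194, GRCh38 chromosome 10 from 100347124 to 100364834, plus strand), which makes oleate and palmitoleate, was the most firmly called of the 32 genes. It had 684, 669.5 and 697 CPM in controls and 998, 978 and 978 CPM after the knockdown, a rise from 684 ± 13.9 to 985 ± 11.9 CPM (SD, n = 3 each). The groups stood far apart relative to their spread (log2 fold change 0.53, SE 0.0339, adjusted p = 5.86e-09). FADS2, the first desaturase of polyunsaturated fatty acids, had 81.1, 71.8 and 77.7 CPM and 108, 98.7 and 106 CPM (log2 fold change 0.44, SE 0.0568, adjusted p = 1.88e-05). FADS1, which acts after it, had 137, 120.4 and 127 CPM and 157, 160.0 and 151 CPM (log2 fold change 0.28, SE 0.0516, adjusted p = 0.000564). Neither pair of groups overlapped. The exons of FADS1 and FADS2 share 490 bases on opposite strands, a small part of each.

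The 3 elongases split in direction. ELOVL6 (ENSG00000170522, GRCh38 chromosome 4 from 110045846 to 110199199, minus strand), which extends palmitate to stearate, had 43.6, 39.0 and 45.0 CPM in controls and 75.3, 75.4 and 78.5 CPM after the knockdown. All knockdown libraries lay well above the controls, with the mean going from 42.6 ± 3.14 to 76.4 ± 1.86 CPM (SD, n = 3 each; log2 fold change 0.84, SE 0.0622, adjusted p = 3.18e-08). ELOVL5, which extends polyunsaturated chains, had 156, 157 and 162 CPM and 172, 184 and 173 CPM. The groups did not overlap, and the rise was small (log2 fold change 0.16, SE 0.0452, adjusted p = 0.0146), with the call lost without control replicate 1 (adjusted p = 0.0604) or knockdown replicate 2 (0.0994). ELOVL1 (ENSG00000066322, GRCh38 chromosome 1 from 43363397 to 43368074, minus strand), which makes saturated very long chains for sphingolipids, fell. It had 105, 96.5 and 102 CPM in controls and 88.0, 83.3 and 90.0 CPM after the knockdown, with every knockdown library below every control (log2 fold change -0.21, SE 0.0521, adjusted p = 0.00515). The ratio of ELOVL6 to ELOVL1 counts was 0.417, 0.404 and 0.442 in controls and 0.856, 0.904 and 0.872 after the knockdown, a 2.08-fold shift of their balance. This ratio sets a gene that rose over a gene that fell, so it restates their changes and is no separate result.

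ACSL3, which activates long-chain fatty acids with CoA and is found at lipid droplets, closed the arm with 132, 133 and 143 CPM in controls and 155, 159.8 and 157 CPM after the knockdown. The groups did not overlap (log2 fold change 0.21, SE 0.0466, adjusted p = 0.00265).

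**Figure D2:**
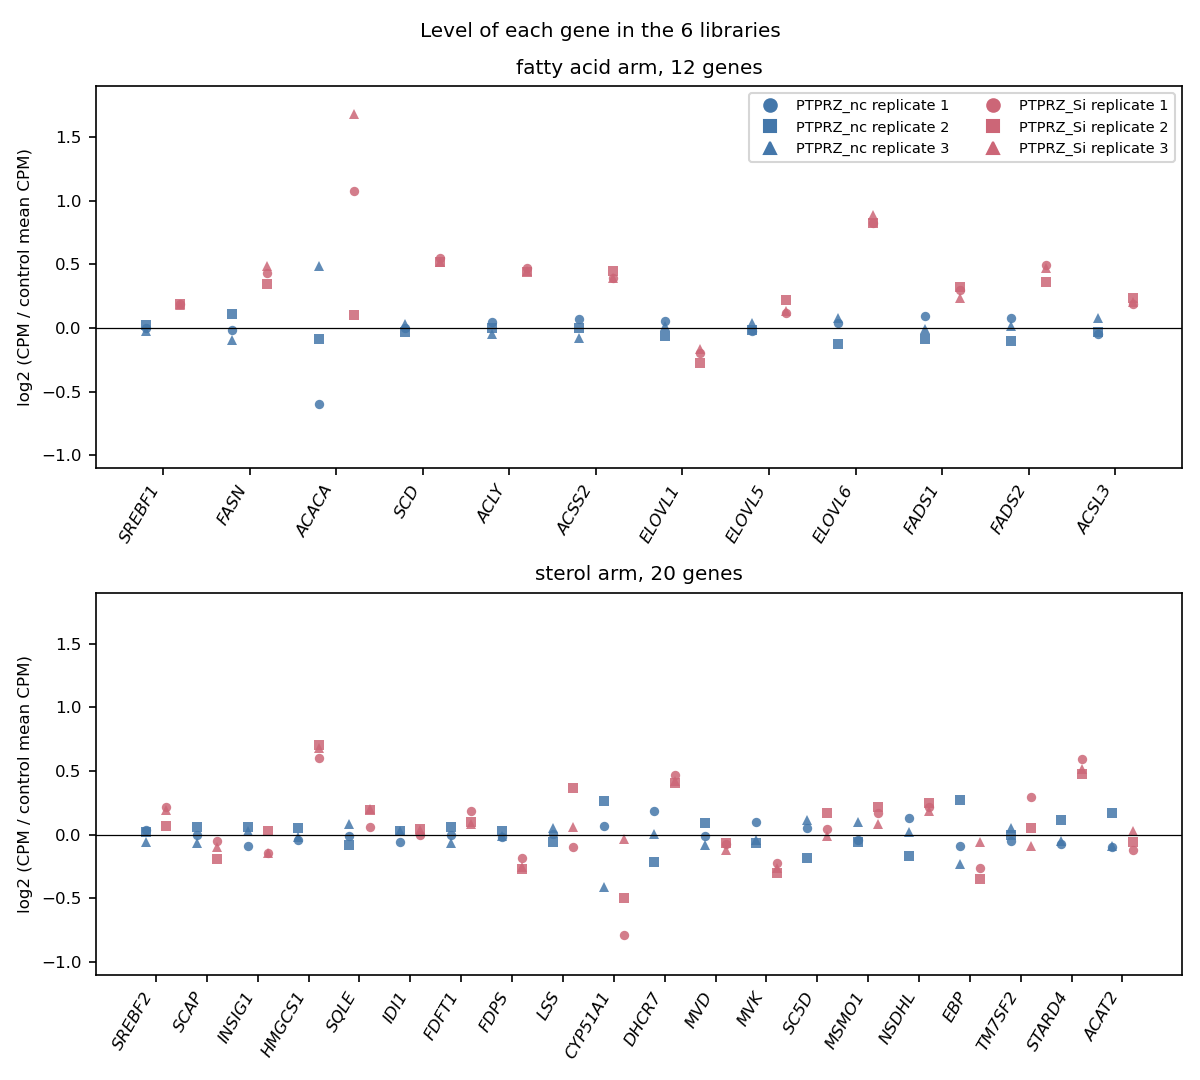
Level of each gene in the 6 libraries as log2 of CPM over the gene's control mean; blue points are control and red points knockdown libraries, with the replicate number given by the shape. In the fatty acid arm the red points lie above the blue ones for 10 genes, below them for ELOVL1 and mixed with them for ACACA, while in the sterol arm most genes lie near 0.

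SREBF2 (ENSG00000198911, GRCh38 chromosome 22 from 41833079 to 41907308, plus strand), which encodes the factor of the sterol arm, had 294, 293 and 277 CPM in controls and 335, 302 and 330.1 CPM after the knockdown. Knockdown replicate 2 stood close to the controls and the other two well above them (log2 fold change 0.16, SE 0.0461, adjusted p = 0.0135). The call was lost without control replicate 3 (adjusted p = 0.0643), knockdown replicate 1 (0.107) or knockdown replicate 3 (0.0806). The ratio of SREBF1 to SREBF2 counts was 0.883 ± 0.0209 in controls and 0.897 ± 0.0512 after the knockdown (SD, n = 3 each), with overlapping libraries. Both sensors of the list did not pass. SCAP, the escort, had 88.9, 92.8 and 84.9 CPM and 86.0, 77.6 and 83.1 CPM (log2 fold change -0.11, 95% interval -0.23 to 0.00, adjusted p = 0.15). INSIG1, the retention protein and itself a well known SREBP target, had 93.8, 104 and 102 CPM and 90.4, 102 and 90.2 CPM (log2 fold change -0.08, 95% interval -0.21 to 0.04, adjusted p = 0.334). For both the libraries of the groups overlapped, and the activity of the factors was not measured.

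The 6 genes from acetyl-CoA to farnesyl diphosphate did not move as a block: 1 rose, 2 fell and 3 did not pass. HMGCS1 (ENSG00000112972, GRCh38 chromosome 5 from 43289395 to 43313512, minus strand), the synthase that makes HMG-CoA, had 68.9, 73.4 and 70.1 CPM in controls and 107.4, 115 and 114 CPM after the knockdown. It was the most firmly called gene of the sterol arm, from 70.8 ± 2.34 to 112 ± 4.17 CPM (SD, n = 3 each; log2 fold change 0.67, SE 0.0515, adjusted p = 5.37e-08). FDPS, which makes farnesyl diphosphate later in the same pathway, fell from 68.6, 70.7 and 68.7 CPM to 60.9, 57.5 and 58.1 CPM without overlap (log2 fold change -0.24, SE 0.0542, adjusted p = 0.00321). The ratio of HMGCS1 to FDPS counts, which restates these opposite changes, thus went from 1.02 ± 0.0170 to 1.91 ± 0.127 (SD, n = 3 each). MVK (ENSG00000110921, GRCh38 chromosome 12 from 109573255 to 109598117, plus strand), mevalonate kinase, had 20.3, 18.1 and 18.4 CPM in controls and 16.2, 15.4 and 15.8 CPM after the knockdown. Every knockdown library was below every control (log2 fold change -0.27, SE 0.0895, adjusted p = 0.0356). The MVK call was lost without control replicate 1 (adjusted p = 0.155) or 3 (0.0501), without knockdown replicate 1 (0.0639), 2 (0.110) or 3 (0.0908), and with DESeq2 (0.0789). ACAT2, which joins acetyl-CoA units at the start, IDI1, the isomerase of isopentenyl diphosphate, and MVD, the decarboxylase that makes it, did not pass, with overlapping libraries. Their 95% intervals were -0.21 to 0.14, -0.10 to 0.16 and -0.23 to 0.07 on the log2 scale, with adjusted p of 0.795, 0.794 and 0.426. Over the 6 libraries ACAT2 ran from 26.4 to 32.2 CPM, IDI1 from 41.4 to 44.4 CPM and MVD from 30.6 to 35.4 CPM.

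Of the 3 steps through squalene, SQLE was called higher and FDFT1 and LSS did not pass. SQLE, squalene epoxidase, had 118, 113 and 126 CPM in controls and 124, 136 and 137 CPM after the knockdown. Knockdown replicate 1 lay below control replicate 3, and the call was close to the threshold (log2 fold change 0.15, SE 0.0543, adjusted p = 0.0454). The SQLE call was lost without control replicate 1 (adjusted p = 0.114) or 2 (0.0879), without knockdown replicate 2 (0.165) or 3 (0.188), and with DESeq2 (0.0530). FDFT1, squalene synthase, had 68.3, 71.5 and 65.6 CPM and 77.8, 73.2 and 72.6 CPM. Its groups did not overlap, yet it did not pass (log2 fold change 0.12, 95% interval 0.00 to 0.24, adjusted p = 0.119), while without control replicate 2 it did (adjusted p = 0.0425). LSS, lanosterol synthase, had 9.99, 9.57 and 10.3 CPM and 9.34, 12.9 and 10.4 CPM, with only knockdown replicate 2 above the range of the others (log2 fold change 0.13, 95% interval -0.14 to 0.40, adjusted p = 0.498).

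Of the 7 genes from lanosterol to cholesterol, 3 rose and 4 did not pass. DHCR7, which performs the last step by one route, had 49.1, 37.3 and 43.4 CPM in controls and 59.9, 57.3 and 58.0 CPM after the knockdown. The knockdown libraries were tight and all above the more scattered controls (log2 fold change 0.42, SE 0.0786, adjusted p = 0.00061). NSDHL, which removes a carboxyl group from the sterol ring, had 36.7, 30.0 and 34.0 CPM and 39.0, 39.8 and 38.1 CPM (log2 fold change 0.21, SE 0.0758, adjusted p = 0.0487). MSMO1, which oxidises a ring methyl group before NSDHL acts, had 120.0, 119 and 133 CPM and 139, 144 and 131 CPM (log2 fold change 0.16, SE 0.0540, adjusted p = 0.0394). NSDHL did not overlap between groups, whereas for MSMO1 knockdown replicate 3 lay below control replicate 3, and both calls sat near the threshold. Without a single library the NSDHL call was lost for control replicate 2 (adjusted p = 0.164) or 3 (0.0882) and knockdown replicate 1 (0.118), 2 (0.145) or 3 (0.0957). The MSMO1 call was lost for control replicate 1 (0.143) or 2 (0.0667) and knockdown replicate 1 (0.126) or 2 (0.178). CYP51A1, the lanosterol demethylase, had the lowest log2 fold change of the 32, -0.38, but on 877 counts it did not pass (95% interval -0.77 to 0.02, adjusted p = 0.157). Its libraries held 9.93, 11.4 and 7.15 CPM in controls and 5.51, 6.72 and 9.26 CPM after the knockdown. They overlapped, and without control replicate 3 (adjusted p = 0.0422) or knockdown replicate 3 (0.0397) the fall did pass. EBP, the sterol isomerase, TM7SF2, a sterol reductase, and SC5D, a sterol desaturase, did not pass and overlapped between groups. Their 95% intervals were -0.46 to 0.05, -0.37 to 0.53 and -0.09 to 0.22, with adjusted p of 0.231, 0.818 and 0.579. Over the 6 libraries EBP ran from 15.3 to 23.6 CPM, SC5D from 51.1 to 65.1 CPM and TM7SF2, with 303 counts in all, from 2.62 to 3.42 CPM.

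STARD4, a soluble carrier that moves cholesterol between membranes, rose from 21.3, 24.3 and 21.6 CPM to 33.8, 31.1 and 32 CPM. The groups did not overlap (log2 fold change 0.53, SE 0.0783, adjusted p = 6.96e-05).

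Compared as sums over members, both arms stood higher after the knockdown, the fatty acid arm by more. Its summed level was 2446, 2406 and 2406 CPM in controls and 3194, 3139 and 3179 CPM after the knockdown, 1.31-fold. The sterol arm summed to 1251, 1256 and 1246 CPM and to 1365, 1358 and 1362 CPM, 1.09-fold. In neither arm did the libraries of the groups overlap. A higher sum is not a rise of every member. The log2 fold change was above 0 for 11 of 12 fatty acid arm genes and 12 of 20 sterol arm genes, beside 7765 of 15476 tested genes. The ratio of the sums was 1.93 ± 0.0204 in controls and 2.33 ± 0.0152 after the knockdown (SD, n = 3 each), and the difference between the arms was not tested, since the members were chosen with results known. The 3 most counted members held 59.2% to 64.0% of the fatty acid sum and 41.7% to 43.9% of the sterol sum. With each member weighted alike, as a geometric mean of CPM, the folds were 1.32 and 1.05.

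**Figure D3:**
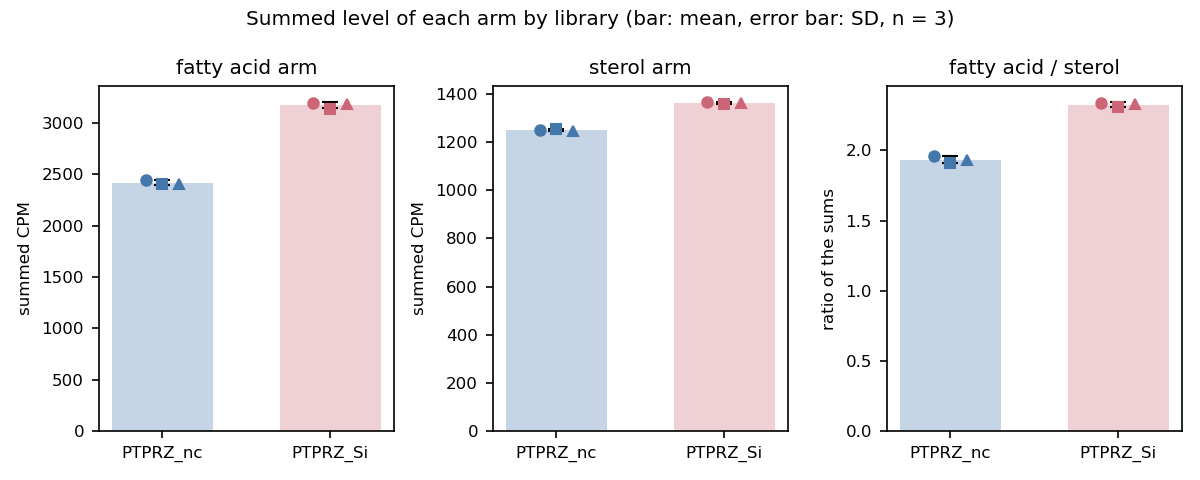
Summed CPM of the fatty acid arm, summed CPM of the sterol arm, and their ratio; bars are means, error bars the SD over 3 libraries and points the single libraries. The knockdown libraries lie above the controls in all 3 panels, 1.31-fold for the fatty acid sum and 1.09-fold for the sterol sum.

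Levels between genes are comparable only per length of exon. In controls SCD stood highest at 128.0 CPM per kb, then ACLY at 90.6, and then MSMO1, ELOVL5, ELOVL1 and SREBF2 between 38.1 and 42.8. After the knockdown SCD reached 184.0 and ACLY 124.0 CPM per kb. HMGCS1 went from 15.1 to 23.9 and FDPS from 18.7 to 15.8 CPM per kb, so by this measure their order turned. Their order in controls rests on the exon lengths used, 4702 and 3718 bases. In CPM their control means were close, 70.8 for HMGCS1 and 69.4 for FDPS. ELOVL6 rose to 10.5 CPM per kb but stayed below ELOVL5 and ELOVL1. LSS, TM7SF2 and ACACA formed the low end in both groups, from 0.293 to 1.5 CPM per kb.

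**Figure D4:**
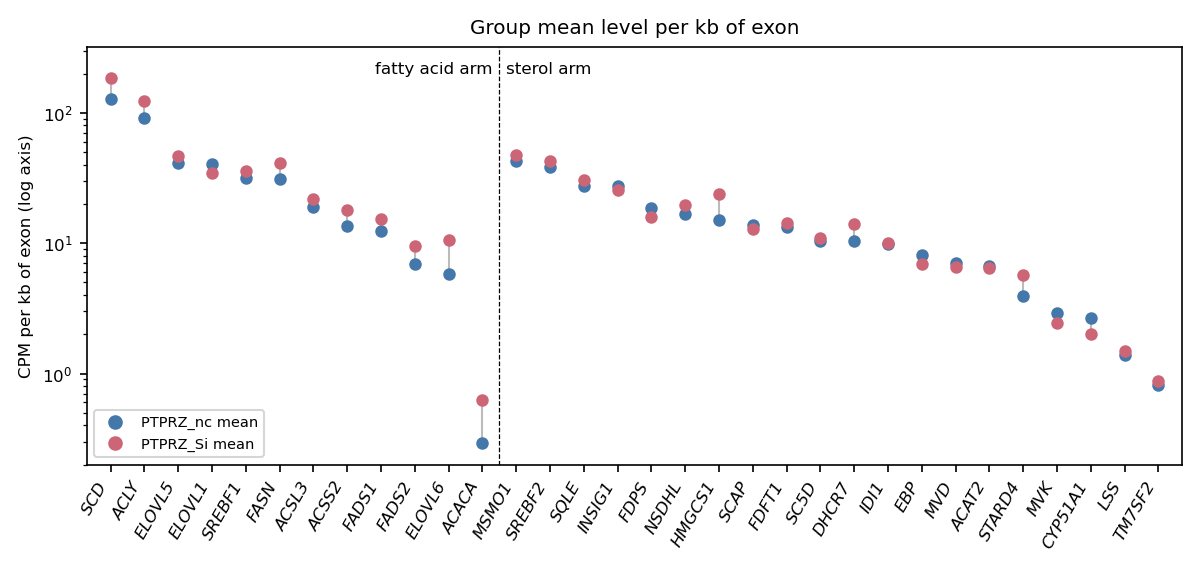
Group mean level of each gene in CPM per kb of exon on a log axis, control in blue and knockdown in red, ordered within each arm by the control mean. SCD and ACLY stand highest in both groups and ACACA lowest, and the widest gaps between the colours are those of ACACA, ELOVL6 and HMGCS1.

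Genes next to these pathways were mixed in direction. Among further sterol synthesis enzymes, of which only some are reported here and which are therefore not summarised, LBR, a sterol reductase of the inner nuclear membrane, had 153, 166 and 170.1 CPM in controls and 138, 147 and 143 CPM after the knockdown. The groups did not overlap (log2 fold change -0.19, adjusted p = 0.00883), and the fall was lost without knockdown replicate 1 (adjusted p = 0.0555).

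All 16 listed genes of SREBP processing and sterol sensing were tested, and 3 rose, 3 fell and 10 did not pass (median log2 fold change 0.05). The shares, 18.8% higher and 18.8% lower, stand near the 14.0% and 13.4% of all tested genes. ERLIN1 and ERLIN2, partner proteins that help hold the SREBP, SCAP and INSIG complex in the endoplasmic reticulum, both fell. ERLIN1 had 99.5, 93.2 and 103 CPM in controls and 66.9, 71.1 and 63.5 CPM after the knockdown (log2 fold change -0.56, SE 0.0576, adjusted p = 1.52e-06). ERLIN2 had 41.7, 41.2 and 44.8 CPM and 28.8, 32.1 and 27.7 CPM (log2 fold change -0.53, SE 0.0737, adjusted p = 3.95e-05). Neither gene's groups overlapped. MBTPS1, the first protease to cut SREBPs in the Golgi, fell as well (log2 fold change -0.29, adjusted p = 0.000223). SPRING1, which aids that protease, rose (log2 fold change 0.40, adjusted p = 0.000326), as did NFYC, a subunit of NF-Y (log2 fold change 0.28, adjusted p = 0.00592). MARCHF6, a ubiquitin ligase that marks squalene epoxidase for degradation, rose by 0.15 on the log2 scale (adjusted p = 0.00578), a call lost without knockdown replicate 1 (0.0509).

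Of 25 further genes of fatty acid synthesis and modification 19 were tested, and of these 5 rose, 2 fell and 12 did not pass (median log2 fold change 0.01). That is 26.3% higher and 10.5% lower, beside 14.0% and 13.4% of all tested genes. ACSL1, an acyl-CoA synthetase, had 200.4, 200.5 and 212 CPM in controls and 303, 300.3 and 296 CPM after the knockdown (log2 fold change 0.55, SE 0.0413, adjusted p = 3.54e-08). Smaller rises were called for MID1IP1, which activates acetyl-CoA carboxylase (log2 fold change 0.28, adjusted p = 0.00106), and FADS3, a desaturase relative of FADS1 and FADS2 (0.24, adjusted p = 0.00109). ACSL4, which activates arachidonate, rose by 0.18 (adjusted p = 0.00738), a call lost without control replicate 1 (0.0519). The elongases ELOVL7 and ELOVL2 fell, with log2 fold changes of -0.37 (adjusted p = 0.000606) and -0.35 (adjusted p = 0.00645).

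Of 13 genes of sterol uptake and traffic 11 were tested, and of these 3 rose, 4 fell and 4 did not pass (median log2 fold change 0.03). That is 27.3% higher and 36.4% lower, beside 14.0% and 13.4% of all tested genes. GRAMD1A, which carries cholesterol from the plasma membrane to the endoplasmic reticulum, had 344, 354 and 326 CPM in controls and 431, 419 and 468 CPM after the knockdown (log2 fold change 0.36, adjusted p = 1.74e-05). SOAT1, which esterifies cholesterol for storage, had 143, 145 and 158 CPM and 178, 185 and 183 CPM (log2 fold change 0.29, adjusted p = 0.000183). LIPA, the lysosomal lipase, NPC2, which passes cholesterol out of lysosomes, and NCEH1, a cholesterol ester hydrolase, fell, with log2 fold changes of -0.29, -0.26 and -0.23 and adjusted p of 0.000453, 0.000464 and 0.00215. OSBP, which exchanges sterol at the Golgi, fell too (log2 fold change -0.20, adjusted p = 0.00733). A list of 11 genes held the LXR receptors, which answer to oxysterols, their targets and oxysterol enzymes. Of its 7 tested genes 2 fell and 5 did not pass (median log2 fold change -0.02). The shares were 0.0% higher and 28.6% lower, beside 14.0% and 13.4% of all tested genes. The 2 were ABCA1, the exporter of cholesterol (195, 202 and 204 CPM and 162, 167 and 175 CPM, log2 fold change -0.25, adjusted p = 0.000437), and SMPDL3A, a phosphodiesterase (log2 fold change -0.34, adjusted p = 0.00414).

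Some values carry a limit of the counting. Reads were counted without strand, so overlapping genes on opposite strands cannot be told apart, and by the counting program's default a read pair that fits more than 1 gene is left out. For CYP51A1 83.2% of exon bases are shared with other annotated genes, for ACAT2 43.1%, for FDPS 18.6%, for HMGCS1 15.0% and for IDI1 14.8%, and at most 7.9% for the others. FDPS has 8 named pseudogenes, which held 26 counts over the 6 libraries beside 6746 for the gene. The part of shared sequence in the levels was not tested.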

How the data were processed

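Per the file headers, the deposited values are raw counts of read pairs from featureCounts 2.0.1 in paired mode over exons, without a strand option, with the Ensembl 107 annotation. The build is hg38 per the submitters' processing notes, and no aligner version was found in the labels. Libraries were made with a directional kit, per the labels' protocols. Coordinates and exon lengths are from GENCODE 29 (GRCh38).

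The test was edgeR 4.0.16's quasi-likelihood test (R 4.3.3). The function filterByExpr left 15476 genes with at least 99.81% of each library's counts. Libraries were scaled by TMM (factors 0.9936 to 1.009), and glmQLFit and glmQLFTest compared 3 with 3 libraries, 2-sided, with Benjamini-Hochberg adjustment over all tested genes. The coefficient of variation beyond counting was 5.53%. CPM values are scaled by TMM, and per kb means per kb of exon. The SE of a log2 fold change was derived from the F statistic of the quasi-likelihood test. Intervals are 95% from that SE and the moderated degrees of freedom of the fit. The scripts were tested on simulated data. Library pairs within a group differed by more than counting noise (chi-square per degree of freedom 2.16 to 6.26). The highest values were those of control replicate 2 with control replicates 1 (5.25) and 3 (6.26), and the other pairs reached at most 3.5. Alternatives used limma 3.58.1, DESeq2 1.42.0, other scalings and filters, a stricter threshold and fewer libraries.

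The 32 genes and the neighbouring lists were chosen with earlier results of these data known. All 32 were named, and of each neighbouring list at most the 6 called members with the smallest p. Some genes of the neighbouring lists are not reported here and were left out of the counts of those lists.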

Additional observations from a re-analysis of the deposited data

How the results depend on the processing

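No fatty acid arm gene changed direction under any of the 16 alternatives, and 10 of its 12 calls and 4 of the 9 sterol arm calls (HMGCS1, FDPS, DHCR7 and STARD4) held under all of them. In the fatty acid arm ACACA and ELOVL5 were the exceptions, and in the sterol arm SREBF2, SQLE, MVK, MSMO1 and NSDHL. TM7SF2 had no value under the filter at a mean of 5 CPM. The sterol arm count called higher was 4 with scaling by library totals and 3 when the threshold was lowered to 0.01. The sterol count called lower was 1 with DESeq2, without a filter on low counts, at that stricter threshold, in the fit with a replicate block and without both libraries numbered 2, an alternative chosen after seeing the data. The stricter threshold called 2655 genes in place of 4243. The median over all genes was -0.01 with scaling by library totals and 0.01 without a filter. Without 1 library at a time, which leaves a group of 2, genes called ran from 3182 to 4425, the sterol counts from 4 to 5 higher and from 1 to 2 lower, the median log2 fold change from 0.371 to 0.431 in the fatty acid arm and from 0.011 to 0.115 in the sterol arm, and that of all genes from -0.005 to 0.003.

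Only genes that did not pass turned direction. When 1 library was left out, log2 fold changes ran from -0.001 to 0.04 for IDI1, from -0.017 to 0.124 for SC5D, from -0.084 to 0.049 for ACAT2, from -0.02 to 0.167 for TM7SF2 and from -0.015 to 0.216 for LSS. The turns came without control replicate 1 (IDI1), control replicate 2 (SC5D, ACAT2), knockdown replicate 1 (TM7SF2) and knockdown replicate 2 (LSS). Without both libraries numbered 2, LSS went to -0.037, SC5D to -0.071, EBP to 0.014 and ACAT2 to 0.059. The cause was not tested. The 3 least counted genes, TM7SF2, ACACA and CYP51A1, had 303, 653 and 877 counts in all and the 3 largest standard errors of the 32.

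Replicate numbers showed no sign of pairing the libraries. Each gene's deviation from its group mean in log2 CPM was correlated between a control and a knockdown library over 11020 genes. Same-numbered libraries gave 0.025, 0.046 and -0.029, and libraries of different number gave -0.057 to 0.035. The replicate block called 4101 genes, with 17 of the 32 higher and 2 lower. MSMO1 and MVK lost their calls in it.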
